A study of Mus musculus with 6 samples.

Results

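Toll-like receptors are membrane proteins that recognise molecules of bacteria and viruses. The 10 genes described here are 7 of these receptors (Tlr1, Tlr2, Tlr3, Tlr4, Tlr7, Tlr9 and Tlr13), the lipopolysaccharide co-receptors Cd14 and Ly96, and the adaptor Myd88. They were chosen by name, and each is represented by 1 probe set, a group of array probes for 1 transcript unit, whose only platform gene symbol is the member. All 10 were found, out of 19938 genes with a probe set of their own. The receptors fall into those at the cell surface, which bind lipids and proteins of microbes, and those in endosomes, which bind nucleic acids. All of them except Tlr3 signal through Myd88 to NF-kappaB and AP-1, and FosB is a member of the AP-1 family. In microglia, the resident macrophages of the brain, lipopolysaccharide acting on Tlr4 with Cd14 and Ly96 is a common laboratory trigger of activation.

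Microglia were grown from the cerebral cortex of mice aged 2 days, collected after 10 days of culture and replated for 24 h, and no stimulus is given in the labels. There were 3 arrays of cells from C57BL/6J wild-type mice and 3 of cells from fosB-null mice, homozygous for the null allele fosBG, which had been backcrossed to C57BL/6J for 20 generations. The allele was carried from the germ line on and not restricted to microglia, and neither group carried another stated allele or agent. The labels call the arrays biological replicates 1 to 3 of each group without saying whether they came from separate animals or litters, so p-values measure the spread between these samples. Values are log2 signals, 1 per probe set and array.

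Same-numbered arrays form pairs that share many exactly equal values: 62.3%, 54.7% and 56% of the 23410 tested probe sets were tied in pairs 1, 2 and 3. A tie is not a measurement of equality. The Fosb probe set had log2 signals of 8.01, 8.14 and 7.92 in wild-type arrays 1, 2 and 3 and of 7.82, 8.05 and 7.83 in fosB-null arrays. The groups overlapped, and fosB-null was lower within each pair, at -0.19, -0.09 and -0.09 (limma adjusted p = 1, or 0.674 with the replicate number as a fixed block and 0.206 with it as a random block, from unadjusted p = 0.249, 0.0452 and 0.00298). No source used here places that probe set within the mutant allele, so its values are no test of the labels. Of 9 microglial markers measured, including Cx3cr1, Csf1r, Trem2 and Tmem119, signals ran from 8.58 to 13.7, against array medians of 7.76 to 7.92. The 8 astrocyte markers ran from 6.29 to 8.31 and the 7 of monocytes and granulocytes from 5.63 to 7.63. Endothelial markers reached 9.19 and those of the oligodendrocyte lineage 10.06, the latter in Mbp, the myelin basic protein gene. Of 7 oligodendrocyte markers 5 had lower fosB-null means, and Mbp was lower in every pair, by -0.32, -0.24 and -0.06, with groups that did not overlap. Its part in the values below was not tested.

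None of the 10 genes passed the test between fosB-null and wild-type microglia, and in every one the groups overlapped. The test was limma over all tested probe sets, two-sided, with Benjamini-Hochberg adjustment and a threshold of 0.05. It called 0 of the 10, against 1 probe set of 23410, or 0.00427%, in the whole table, which was the C5a receptor gene C5ar2, lower in fosB-null arrays. The part of linkage to Fosb in the C5ar2 call was not tested. At an unadjusted p under 0.05 the test found 0 of the 10, against 169 probe sets or 0.722% of the table. The adjusted p was 1 for each of the 10. The groups did not overlap in 262 tested probe sets, or 1.12%. With the replicate number as a block, limma called 0 probe sets of the table, and 0 of the 10 genes had an unadjusted p under 0.05 (2.31% of the table). That fit did not call C5ar2 either, which differed by -1.795, -1.861 and -1.738 in the pairs (limma adjusted p = 0.539). Its 0 calls therefore say little about the 10 genes. With that number as a random block it called 47 probe sets, or 0.201%, and again 0 of the 10.

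The differences of the 10 genes went in both directions. A difference is the fosB-null mean minus the wild-type mean in log2 signal. It ranged from -0.09 for Cd14 to 0.11 for Tlr7, 6 genes were lower and 4 higher, and the median was -0.03. Over all tested probe sets 41.3% were lower, 30.9% higher and 27.8% at exactly 0, with a median of 0.00. Regardless of sign, the median size of the difference was 0.077 in the 10 genes, 0.015 over all tested probe sets and 0.027 over those at least as bright as the dimmest of the 10. The 95th percentile of size over these bright probe sets was 0.15, and the largest of the 10 genes was 0.11. Of the 10 genes, 1 was lower without wild-type replicate 2, at a median of 0.03, and 3 were lower without fosB-null replicate 3, at a median of 0.04. The median over all tested probe sets was 0.028 and 0.012 in those fits, in that order. Every fit that leaves out a single array has no block and keeps the partner of that array. Level differences between replicate numbers can therefore enter its values, here and for each gene below. The 95% intervals of the 10 differences lay between -0.39 and 0.40, so each interval leaves out fosB-null levels above 1.32 times or below 0.764 times those of wild-type. These intervals, and the p-values of the fit without a block, take the arrays as independent, which paired arrays are not. In bulk RNA, fewer cells of a type and less RNA per cell cannot be told apart.

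**Figure D1:**
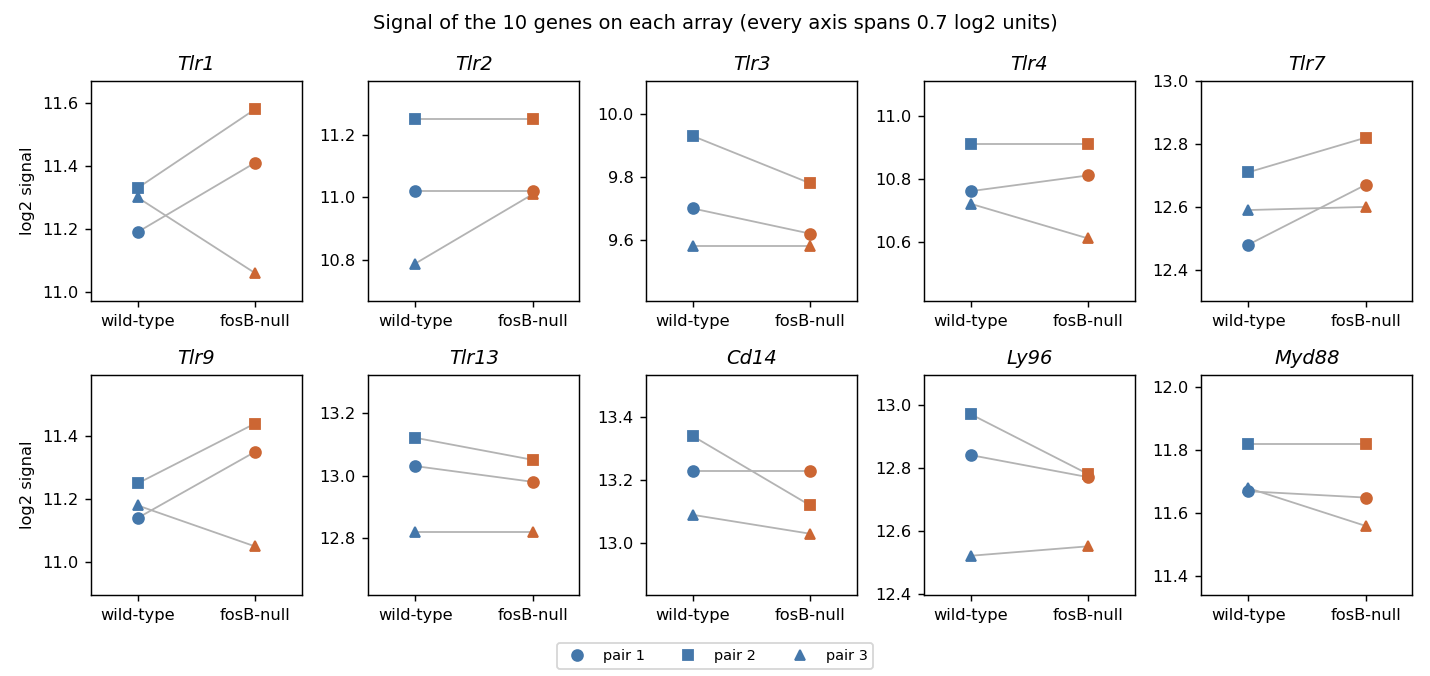
Log2 signal of each of the 10 genes on the 6 arrays, wild-type at left in blue and fosB-null at right in orange, with lines joining same-numbered arrays and marker shapes giving the pair. Every axis spans 0.7 log2 units around its own centre, and in all 10 panels the groups overlap.

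The surface receptors Tlr1, Tlr2 and Tlr4 did not pass the test. Tlr1, which pairs with Tlr2 to bind triacylated lipopeptides, had log2 signals of 11.19, 11.33 and 11.30 in wild-type arrays 1, 2 and 3 and of 11.41, 11.58 and 11.06 in fosB-null arrays. The fosB-null arrays held both the highest and the lowest signal, so the groups overlapped. The difference was 0.08 (95% interval -0.24 to 0.40, limma unadjusted p = 0.580), from 0.22 and 0.25 in pairs 1 and 2 and -0.24 in pair 3. Its spread in fosB-null arrays was 0.26 (SD, n = 3), against 0.075 in wild-type arrays, and without fosB-null replicate 2 the difference was -0.04.

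Tlr2, the common partner of the lipopeptide receptors, had log2 signals of 11.02, 11.25 and 10.79 in wild-type and of 11.02, 11.25 and 11.01 in fosB-null arrays. Pairs 1 and 2 were exact ties, and the difference of 0.07 (95% interval -0.24 to 0.38, limma unadjusted p = 0.592) came from pair 3 at 0.22. The low value was wild-type replicate 3, and without it the difference was -0.04. Without fosB-null replicate 2 it was -0.0028.

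Tlr4, the receptor for lipopolysaccharide, had log2 signals of 10.76, 10.91 and 10.72 in wild-type and of 10.81, 10.91 and 10.61 in fosB-null arrays. It had the smallest mean difference of the 10, at -0.02 (95% interval -0.26 to 0.22, limma unadjusted p = 0.855). The pairs differed by 0.05, 0.00 and -0.11, and the pair 2 value was an exact tie. The sign turned to 0.04 when wild-type replicate 2 was left out, to 0.06 when fosB-null replicate 3 was left out, and to 0.0082 with array weights.

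Both co-receptors of Tlr4 had lower fosB-null means, within the spread of the arrays. Cd14, which hands lipopolysaccharide to the receptor complex, had log2 signals of 13.23, 13.34 and 13.09 in wild-type and of 13.23, 13.12 and 13.03 in fosB-null arrays. It was tied in pair 1 and lower in pairs 2 and 3, by -0.22 and -0.06. The difference was -0.09 (95% interval -0.32 to 0.13, limma unadjusted p = 0.353), and it stayed below 0 whichever single array was left out, from -0.16 to -0.03.

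Ly96, which encodes MD-2, the lipopolysaccharide-binding subunit of the Tlr4 complex, had log2 signals of 12.84, 12.97 and 12.52 in wild-type and of 12.77, 12.78 and 12.55 in fosB-null arrays. The array of replicate 3 was the lowest of both groups. The difference was -0.08 (95% interval -0.39 to 0.23, limma unadjusted p = 0.575), with -0.06, -0.19 and 0.02 in the pairs. Without wild-type replicate 2 it was 0.02. The lipopolysaccharide receptor and its co-receptors thus differed by -0.02, -0.09 and -0.08, and none passed the test.

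Of the endosomal receptors, Tlr7 and Tlr9 had higher fosB-null means and Tlr3 and Tlr13 lower ones, and none passed the test. Tlr7, a receptor for single-stranded RNA, had log2 signals of 12.48, 12.71 and 12.59 in wild-type and of 12.67, 12.82 and 12.60 in fosB-null arrays. Its difference was 0.11 (95% interval -0.11 to 0.33, limma unadjusted p = 0.284), the largest of the 10. It was the only one of the 10 above wild-type in all 3 pairs, by 0.19, 0.12 and 0.01, as were 2.2% of tested probe sets. With the random block the unadjusted p was 0.0177 and the adjusted p 0.399. Leaving out single arrays gave 0.05 to 0.16.

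Tlr9, a receptor for DNA with unmethylated CpG, had log2 signals of 11.14, 11.25 and 11.18 in wild-type and of 11.35, 11.44 and 11.05 in fosB-null arrays. As for Tlr1, fosB-null arrays 1 and 2 were above every wild-type array and fosB-null array 3 was below. The difference was 0.09 (95% interval -0.17 to 0.36, limma unadjusted p = 0.438), from 0.21, 0.19 and -0.13 in the pairs. Leaving out single arrays gave 0.01, without fosB-null replicate 2, to 0.21, without fosB-null replicate 3.

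Tlr3, the receptor for double-stranded RNA, had log2 signals of 9.70, 9.93 and 9.58 in wild-type and of 9.62, 9.78 and 9.58 in fosB-null arrays. It was lower in pairs 1 and 2, by -0.08 and -0.15, and tied in pair 3. The difference was -0.08 (95% interval -0.34 to 0.18, limma unadjusted p = 0.505), and 0.02 without wild-type replicate 2. With the random block the unadjusted p was 0.0483 and the adjusted p 0.513. Tlr3 and Tlr7 were the 2 of 10 genes with an unadjusted p under 0.05 in that fit, which 9.63% of the table reached. The rest of the 10 had an unadjusted p from 0.0606 (Cd14) to 0.572 (Tlr4) with limma and the random block.

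Tlr13, which binds bacterial ribosomal RNA, had log2 signals of 13.03, 13.12 and 12.82 in wild-type and of 12.98, 13.05 and 12.82 in fosB-null arrays. It followed the same course as Tlr3, slightly lower in pairs 1 and 2 (-0.05 and -0.07) and tied in pair 3. The difference was -0.04 (95% interval -0.29 to 0.21, limma unadjusted p = 0.712), and turned to 0.03 when wild-type replicate 2 was left out and to 0.02 when fosB-null replicate 3 was.

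Myd88, the shared adaptor, had log2 signals of 11.67, 11.82 and 11.68 in wild-type and of 11.65, 11.82 and 11.56 in fosB-null arrays. It was the only one of the 10 lower in all 3 pairs, by -0.02, -0.0029 and -0.12, as were 5.57% of tested probe sets. The difference was -0.05 (95% interval -0.27 to 0.17, limma unadjusted p = 0.616). Leaving out wild-type replicate 2 gave 0.0008, and leaving out fosB-null replicate 3 gave 0.01. Both fits keep an array without its partner, and no pair of Myd88 was above 0.

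**Figure D2:**
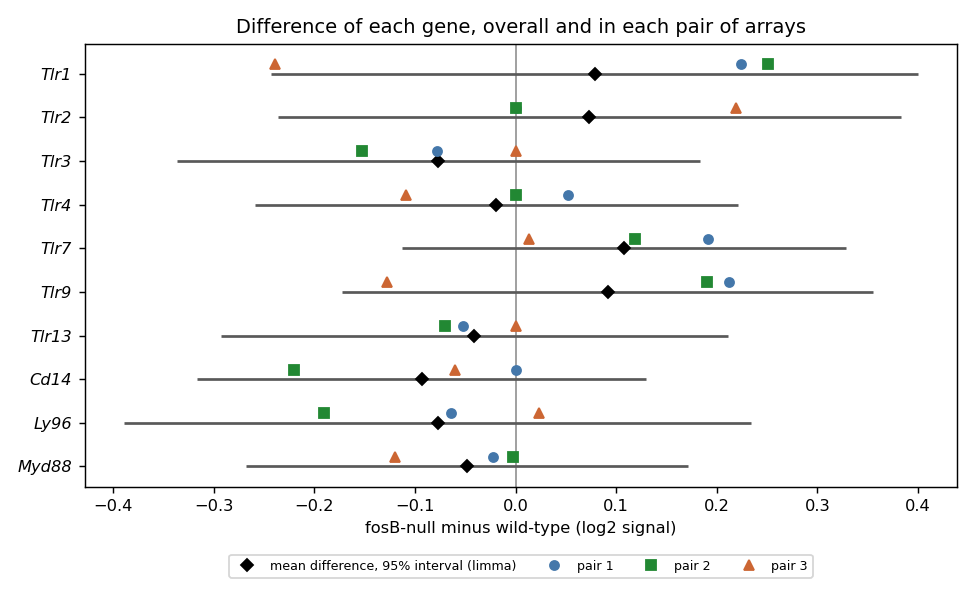
Difference of each gene, fosB-null minus wild-type in log2 signal. Black diamonds and bars are the mean difference with its 95% interval from limma, coloured markers are pairs 1 to 3, and every bar crosses 0.

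The members shared an order over the array numbers. Wild-type replicate 2 was the highest wild-type array in all 10 genes, and fosB-null replicate 2 was the highest fosB-null array in 9, Cd14 being the exception. Replicate 3 was the lowest fosB-null array in all 10 and the lowest wild-type array in 6. The mean signal of the 10 genes was 11.71, 11.86 and 11.63 in wild-type and 11.75, 11.85 and 11.59 in fosB-null arrays. Above each array's own median, that was 3.94, 3.97 and 3.81 in wild-type and 3.96, 3.94 and 3.76 in fosB-null arrays. On both scales replicate 3 was the lowest array of each group. Replicate 2 also had each group's highest median over all probe sets, at 7.92 (fosB-null) and 7.89 (wild-type). Above the medians, wild-type replicate 2 stayed highest at 3.97, but fosB-null replicate 2, at 3.94, fell below fosB-null replicate 1, at 3.96. The share of tested probe sets with the same order was not counted, so the order is not shown to be particular to the 10 genes. Of the 30 differences within pairs, 6 were exact ties, 10 were above 0 and 14 below, and the largest was 0.25 in size.

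**Figure D3:**
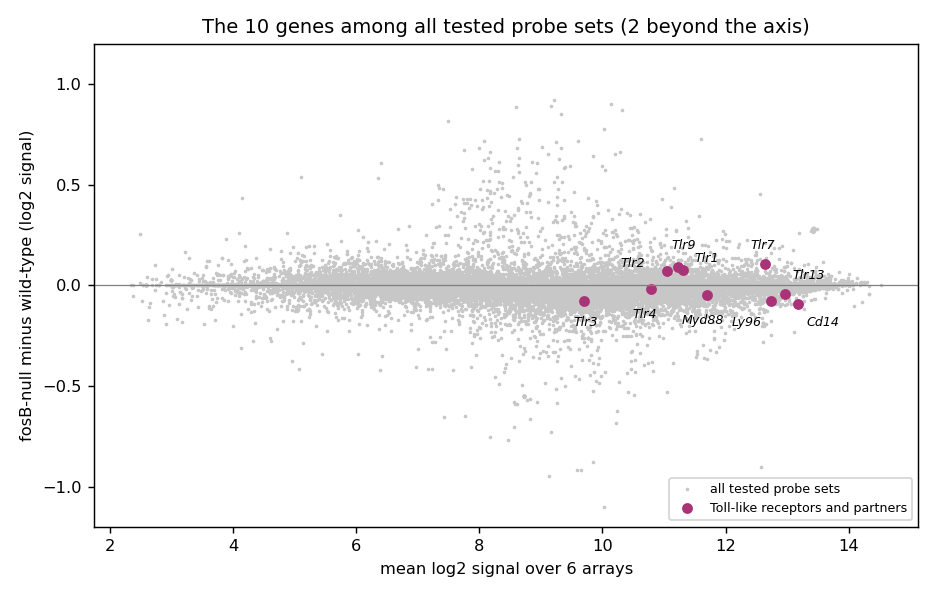
Difference between the groups in log2 signal against mean log2 signal, for all tested probe sets in grey and the 10 genes in purple. The 10 genes lie between -0.09 and 0.11, and 2 other probe sets lie beyond the vertical axis, which ends at 1.2 in either direction.

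Tlr1 had the widest range over the arrays, 0.52, and Tlr9 was among the genes closest to it. Likeness was measured as the root mean square difference of values centred on their own mean over 6 arrays, and 20097 other single-gene probe sets were ranked. Genes with Gm or Rik symbols and small non-coding RNAs were left out of the ranking. The closest was Abca9, a transporter gene of the ABC family, at 0.039. Tlr9 came next at 0.044 and then Lacc1, an enzyme gene of macrophages, at 0.05. Abca9 differed by 0.25, 0.25 and -0.12 in the pairs and Lacc1 by 0.06, 0.27 and -0.20. Of the other members, Tlr4 was at rank 189, Tlr7 at 278 and Myd88 at 790, and the rest ranked from 6904 to 12800. A value at least 0.1 higher in pairs 1 and 2 and at least 0.1 lower in pair 3 was found in 2 of the 10 genes, Tlr1 and Tlr9, and in 73 tested probe sets, or 0.312%. This pattern was chosen after the values were seen.

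**Figure D4:**
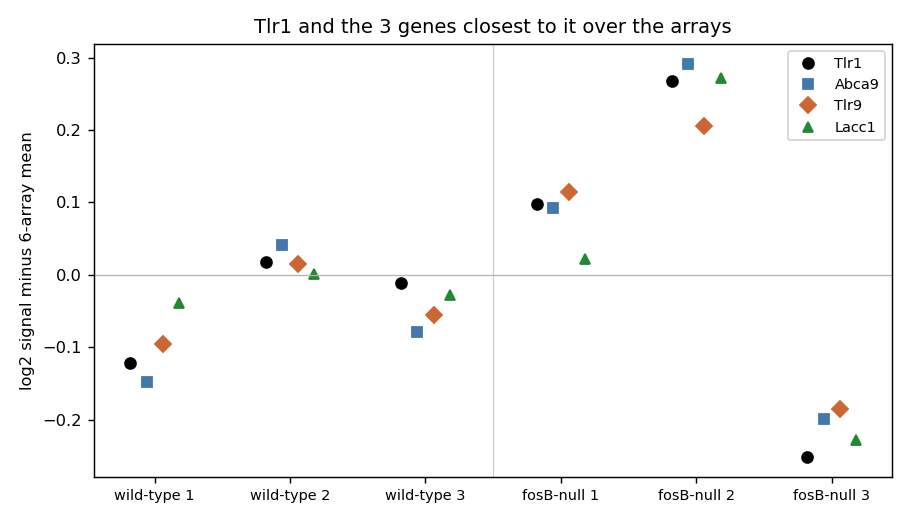
Log2 signal of Tlr1 and of the 3 genes closest to it among those ranked, each minus its own mean over the 6 arrays, by array. In all 4 genes fosB-null array 2 is the highest and fosB-null array 3 the lowest.

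Markers of border macrophages, which line the vessels and meninges of the brain, are given beside the values of Tlr1 and Tlr9. Of 7 border macrophage markers 5 had higher fosB-null means and 2 were tied in all pairs, and the mean signal of the list ran from 9.43 to 9.69 in wild-type and from 9.55 to 9.78 in fosB-null arrays. Mrc1, the mannose receptor, differed by 0.29, 0.55 and -0.03 in the pairs, and Stab1, a scavenger receptor, by 0.25, 0.28 and 0.00. The other 3 did not share that order: Siglec1 differed by 0.11, 0.22 and 0.11, Pf4 by 0.21, -0.17 and 0.34, and F13a1 by 0.00, -0.25 and 0.61. The markers Lyve1 and Cd163 were those tied in every pair, at signals of 6.32 to 6.94, below the lowest array median of 7.76. Their ties therefore do not show equal levels. F13a1 ran from 7.17 to 7.78, on each array below that array's median. Of the microglial markers 7 of 9 had higher fosB-null means, with list means of 11.16 to 11.37 in wild-type and 11.25 to 11.39 in fosB-null arrays. The part of these differences in the receptor values was not tested. Tlr7 and Tlr9 are also receptors of B cells and dendritic cells, and 7 of the 8 measured markers of those cells stayed between 5.62 and 7.53 on every array, below the lowest array median of 7.76. The other, Bst2, which interferon also induces, ran from 9.84 to 10.33.

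The RefSeq promoter table (GRCm38.p6) held windows for 6 of the 10 genes, 7 windows in all, and none for Tlr4, Tlr7, Cd14 or Ly96. In the 250 bases before each start, 3 motifs were searched on both strands: the AP-1 site TGANTCA, the CRE TGACGTCA, and GAGGAA, a core bound by PU.1, a factor of macrophage lineages. The AP-1 letters were in 1 of the 7 windows, that of Tlr9, and in 6.75% of all 32851 windows. The PU.1 core was in 3 of 7 (Tlr1, Tlr9 and Tlr13) and in 23.3% of all. The CRE was in 0 of 7 and in 1.55% of all. The windows of Tlr1 and Tlr9 are shown because these genes ran alike over the arrays, with motif letters in capitals, which did not overlap each other. Bases inside the annotated gene were left off, which removed 42 bases and the PU.1 core from the Tlr1 window shown. The counts above are over all 250 bases of each window. In the Tlr3 window and the other Tlr1 window all 250 bases lay inside the annotated gene, and in the Tlr2 window 216 did.
Tlr1 (chr5:64933601-64933808, minus strand): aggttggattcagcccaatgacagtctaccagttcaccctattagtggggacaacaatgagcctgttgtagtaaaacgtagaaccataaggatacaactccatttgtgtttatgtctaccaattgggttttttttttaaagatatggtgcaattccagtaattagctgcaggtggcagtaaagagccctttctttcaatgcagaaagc
Tlr9 (chr9:106222348-106222597, plus strand): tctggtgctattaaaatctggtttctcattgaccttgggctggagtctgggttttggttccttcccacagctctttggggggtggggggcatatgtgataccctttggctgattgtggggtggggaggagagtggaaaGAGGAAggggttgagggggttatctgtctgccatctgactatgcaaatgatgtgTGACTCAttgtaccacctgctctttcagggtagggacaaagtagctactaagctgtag
The Tlr9 window thus holds the AP-1 letters and the Tlr1 windows do not, and neither gene passed the test. A match describes the letters of this window and is not a measured binding site.

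Among 72 other measured genes of the pathway, limma called 0, and 5 had an unadjusted p under 0.05 (0.722% over the whole table): Hsp90b1, Irf7, Dusp1, Plaur and Ccl5. These lists were chosen with earlier results of the data known, so their counts are no independent evidence. Of the 72, 45 had lower fosB-null means, 19 higher and 8 no difference, where the whole table had 41.3%, 30.9% and 27.8%. The groups did not overlap in 3, Hsp90b1, Dusp1 and Plaur (1.12% over the table). With the random block 2 were called (0.201% over the table), Hsp90b1 higher and Irf7 lower. With the replicate as a fixed block 0 were, as in the whole table. None of the 10 members lies on chromosome 7, which carries Fosb, whereas 6 of the 72 do: Irf3, Irf7, Plaur, Saa3, Sigirr and Tollip. Sharing a chromosome does not give the distance to Fosb, which was not compared. The mutant allele came through backcrosses, and the part of linkage to Fosb in these values was not tested.

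Other receptors of the family were measured in 3 of 5 cases, and 0 passed. Tlr8, an endosomal RNA receptor, had log2 signals of 12.32, 12.52 and 12.09 in wild-type and of 12.32, 12.40 and 12.45 in fosB-null arrays. It was tied in pair 1 and went opposite ways in pairs 2 and 3, by -0.12 and 0.36, and like Tlr2 its lowest value was wild-type replicate 3. Tlr6, a partner of Tlr2, differed by -0.01, and Tlr12 was tied in every pair. Tlr5 and Tlr11 were not analysed here.

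Of 10 accessory and trafficking proteins, 0 passed without a block, with a median difference of 0.00. Hsp90b1, the endoplasmic reticulum chaperone that folds Toll-like receptors, had log2 signals of 11.78, 11.96 and 11.94 in wild-type and of 12.03, 12.21 and 12.11 in fosB-null arrays, which did not overlap. Its difference was 0.22 (limma unadjusted p = 0.0342, adjusted p = 1), and the adjusted p was 0.0305 with the random block and 0.674 with the fixed block. Cnpy3, a co-chaperone of these receptors, differed by -0.06, Cd180, a relative of Tlr4, by 0.03 and Rab7b, a trafficking GTPase, by -0.03.

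Of 18 measured adaptors and kinases, 0 passed without a block, 15 had lower fosB-null means and 3 higher, and the median was -0.04. Irf7, the transcription factor that drives interferon after Tlr7 and Tlr9 signalling, had log2 signals of 9.24, 9.36 and 8.96 in wild-type and of 8.88, 9.0 and 8.72 in fosB-null arrays. It was lower in all 3 pairs, by -0.37, -0.36 and -0.25, although the groups overlapped. Its difference was -0.33 (limma unadjusted p = 0.0358, adjusted p = 1), and the adjusted p was 0.0288 with the random block and 0.674 with the fixed block. Ikbkg, a subunit of the IkappaB kinase, differed by -0.08, the ubiquitin ligase gene Traf6 by -0.06 and the kinase gene Map3k7 by 0.05.

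Of 16 measured negative regulators, 0 passed, 9 had lower fosB-null means, 3 higher and 4 no difference. Dusp1, a phosphatase of MAP kinases, had log2 signals of 11.88, 11.87 and 11.61 in wild-type and of 11.58, 11.47 and 11.42 in fosB-null arrays, which did not overlap. Its difference was -0.30 (limma unadjusted p = 0.0193, adjusted p = 1, and 0.0723 with the random block). The NF-kappaB inhibitor gene Nfkbia differed by -0.08, the ribonuclease gene Zc3h12a by -0.08 and Socs1 by -0.09.

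Of 25 measured transcripts that these receptors induce, 0 passed, 16 had lower fosB-null means and 7 higher, with a median of -0.03. Plaur, the urokinase receptor, had log2 signals of 10.74, 10.78 and 10.73 in wild-type and of 10.17, 10.53 and 10.27 in fosB-null arrays, which did not overlap. Its difference was -0.43 (limma unadjusted p = 0.00421, adjusted p = 1, and 0.0723 with the random block). The chemokine gene Ccl5 differed by -0.43 and the interleukin genes Il1a and Il1b by -0.42 and -0.38, all with overlapping groups. Il1a was tied in pair 3, and Il1b was higher in pair 1, by 0.14, and lower in pairs 2 and 3. Il1a stayed between 6.82 and 7.7 on every array, below the lowest array median of 7.76. Signals of the list ran from 4.03 to 13.96, so its counts include genes below the array medians.

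**Figure D5:**
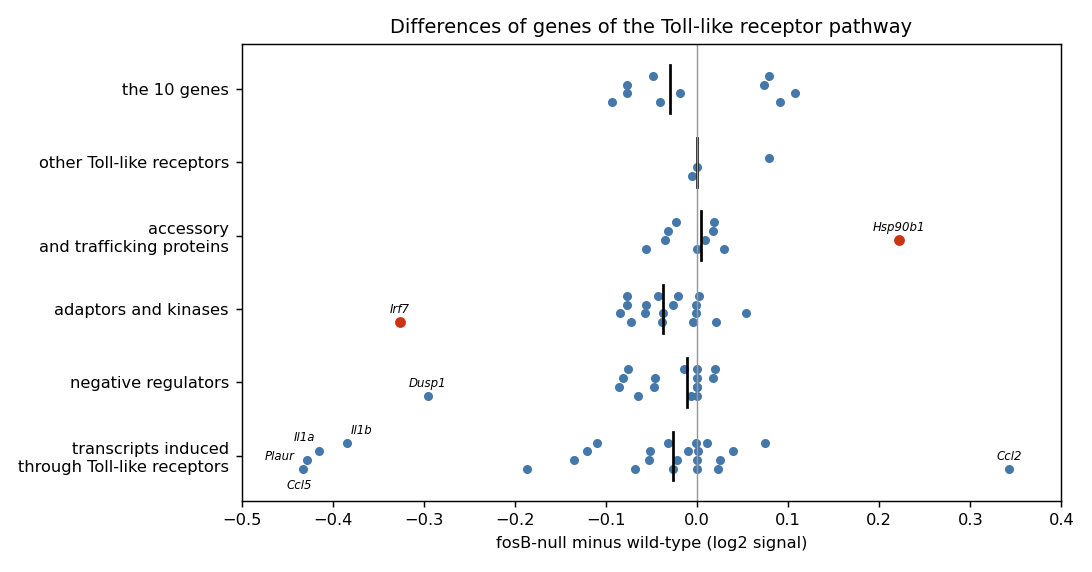
Difference of each measured pathway gene, fosB-null minus wild-type in log2 signal, by list, with the list median as a black bar. Red points are the genes called with the random block, Hsp90b1 and Irf7, and names are given for genes that differ by over 0.25 or are red.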

How the data were processed

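Total RNA (100 ng) was amplified into biotinylated sense-strand DNA for Affymetrix arrays, per the labels' protocols. The authors deposited 1 log2 value per probe set and array. The submitters' processing notes name Affymetrix Expression Console. Version, summary method, normalization and detection calls: not given in the sources used here. Values of 1.73 to 14.6 were taken to be log2. Genes came from the platform table, with symbols updated through a RefSeq table of GRCm38.p6. Of 35557 probe sets 21789 had 1 symbol, 1621 several and 12147 none, and the 23410 with a symbol were tested with limma 3.58.1 in R 4.3.3, without a block. The fit was also run on simulated arrays drawn independently, without pairs or ties. That run does not show how the fit behaves on the paired and tied values here.

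Over tested probe sets, tied ones included, deviations from group means correlated at 0.911, 0.821 and 0.82 between same-numbered arrays. Differences are therefore also given within pairs, and the block fits use the pairs, but the main fit, with its p-values and intervals, does not. The part of the ties in the correlations was not tested. This pairing is read from the values. The members, lists and alternatives were chosen with earlier results of these data known. Named genes are all members and up to 4 genes per pathway list with the lowest p. Alternatives were leaving out each array, fixed and random blocks, array weights, an intensity trend, robust eBayes, other tested sets, dropping the dimmest 40%, median centring and quantile normalization. The number of arrays limits the precision.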

Additional observations from a re-analysis of the deposited data

How the results depend on the processing

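None of the 10 genes was called under any of the 16 alternatives run, and 1 probe set of the table was called in most of them. The table's count was 0 with the replicate block and 47 with the random replicate block, and 1 to 2 with single arrays left out. The replicate block changed no call among the 10 genes, but it did not call C5ar2 either. Quantile normalization and median centring turned the sign of none of them, but median centring moved their median difference to -0.054. It also moved the median over all tested probe sets, to -0.024. With single arrays left out the number of members lower in fosB-null ranged from 1 (wild-type replicate 2 left out) to 8, with 3 when fosB-null replicate 3 was left out, and the median difference from -0.088 to 0.045. The median over all tested probe sets ranged from -0.042 to 0.028 in the same fits. Over those fits the difference ranged from -0.036 to 0.22 for Tlr1, -0.040 to 0.19 for Tlr2, -0.16 to 0.020 for Tlr3, -0.086 to 0.065 for Tlr4, -0.13 to 0.026 for Tlr13, -0.20 to 0.019 for Ly96 and -0.12 to 0.011 for Myd88, each turning sign. Array weights gave 0.0082 for Tlr4. Tlr7, Tlr9 and Cd14 kept their sign in all 16. A fit that leaves out 1 array keeps its partner, so level differences between replicate numbers can enter its values. The cause of these moves was not tested.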
